A study of Mus musculus with 6 samples.

Results

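The genes described are 7 factors that destabilise immune mRNAs in T cells: Zfp36, Zfp36l1 and Zfp36l2 of the ZFP36 family, Zc3h12a and Zc3h12d of the Regnase family, and Rc3h1 and Rc3h2 of the Roquin family. They were taken by name from 36930 features of the deposited tables, and each name matched a row. RNA-Seq had been performed on regulatory T cells (Tregs) from the bone marrow (BM) of 3 naive and 3 chronic myeloid leukemia (CML) mice, with 1 mouse for each library. All mice were of the Foxp3-DTR-GFP genotype and at post natal week 8. In these animals the Foxp3 locus, which encodes the lineage-defining transcription factor of Tregs, drives the diphtheria toxin receptor and GFP. The CML mice had received lineage-negative Sca-1+ c-kit+ stem and progenitor cells (LSKs) that carried a BCR-ABL1-GFP retrovirus, and their Tregs were taken at day 15. The recipients were not irradiated, so the host marrow remained in place. As the retrovirus also encodes GFP, green fluorescence by itself marks both Tregs and leukemic cells in the CML mice. The sex of the mouse behind each library is not given in the labels.

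ZFP36 proteins, of which tristetraprolin (Zfp36) is the best known, bind AU-rich elements in the 3′ UTR of an mRNA and bring in the CCR4-NOT complex, which shortens the poly(A) tail. Roquin-1 (Rc3h1) and Roquin-2 (Rc3h2) recognise short stem loops and recruit the same deadenylase, whereas Regnase-1 (Zc3h12a) is an endoribonuclease that cuts such stem loops. Regnase-4 (Zc3h12d) is a relative of Regnase-1. In T cells these proteins keep mRNAs of cytokines, costimulatory receptors and NF-κB factors short lived. After stimulation of the T cell receptor, the MALT1 protease cleaves Regnase-1 and the Roquins, and p38 and its kinase MK2 switch off tristetraprolin by phosphorylation.

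Several of the 7 mRNAs carry the kind of element that the family reads. The AU-rich octamer UAUUUAUU was found in the 3′ UTR of 5 of the 7 genes, searched on the transcribed strand of 1 GENCODE M21 transcript a gene (GRCm38). It occurred in 14.6% of 20753 mouse genes with a 3′ UTR. The sites of the ZFP36 family are shown because they are the letters that a ZFP36 protein binds, here in the mRNAs of the family itself, with a site of Tnf, the textbook target of tristetraprolin, for comparison. Capitals mark the octamer.
Zfp36, chr7:28376950-28376979, minus strand: uaugacgacuuUAUUUAUUguauuaagauu
Zfp36l1, chr12:80108421-80108450, minus strand: uuaucaaaacgUAUUUAUUgccaaacuaug
Zfp36l1, chr12:80108166-80108195, minus strand: aacuguuggauUAUUUAUUuuagaaauucu
Zfp36l2, chr17:84184913-84184942, minus strand: acuauuuaacuUAUUUAUUaucuugugaaa
Zfp36l2, chr17:84184679-84184708, minus strand: auuguauguaaUAUUUAUUucauuaauuuc
Tnf, chr17:35199688-35199717, minus strand: uuugcacuuauUAUUUAUUauuuauuuauu

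A perfect stem of 5 base pairs that closes a loop of 3 bases, in the order pyrimidine, purine, pyrimidine, is the form that Roquin and Regnase proteins prefer. It was found in 3 of the 7 genes, against 19.8% of the 20753 genes. Zc3h12a held 3 such stem loops, Rc3h1 held 4, of which the first and the second overlap, and Rc3h2 held 2. Rc3h1 and Rc3h2 share the same stem around a UGU loop, and the known target mRNAs Tnfrsf4, Icos, Rel and Tnf are shown beside them. Capitals mark the loop, and 4 further bases are given on each side of the stem.
Zc3h12a, chr4:125119066-125119086, minus strand: guugauacaCAUuguaucucu
Zc3h12a, chr4:125118884-125118904, minus strand: guuaggcacCAUgugccugcu
Zc3h12a, chr4:125118660-125118680, minus strand: agauuuaaaUAUuuuaaauga
Rc3h1, chr1:160971657-160971677, plus strand: aauaacuucUGUgaaguugcc
Rc3h2, chr2:37373806-37373826, minus strand: auuaacuucUGUgaaguuguu
Tnfrsf4, chr4:156016538-156016558, plus strand: uauguaugcUAUgcauacuac
Icos, chr1:60999483-60999503, plus strand: caaaauuucUGUgaaauaaaa
Rel, chr11:23742025-23742045, minus strand: uguaauggcUAUgccauuggg
Tnf, chr17:35199582-35199602, minus strand: cauguuuucUGUgaaaacgga

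Zc3h12d held neither motif in a 3′ UTR of 2327 bases. A longer 3′ UTR has more room for a match, and those of the 7 genes had a median length of 1835 bases against 847 bases over all genes. A match is a run of letters in the annotation and was not tested for binding or decay here.

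**Figure D1:**
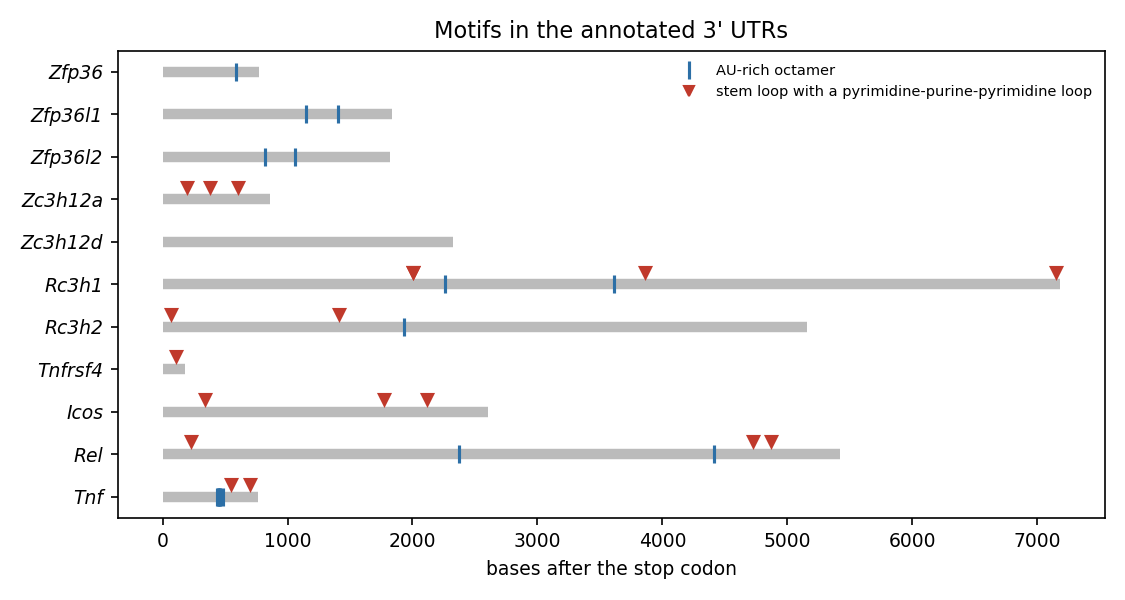
Position of the AU-rich octamer (blue ticks) and of the stem loop (red triangles) along the annotated 3′ UTR (grey bars, bases after the stop codon) of the 7 genes and of 4 known target mRNAs. The ZFP36 genes hold 1 or 2 octamers and no stem loop, Zc3h12a holds 3 stem loops and no octamer, and Zc3h12d has none of either.

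The genes are spread over 7 chromosomes. Zfp36 (ENSMUSG00000044786.6) lies at chr7:28376784-28380253, Zfp36l1 (ENSMUSG00000021127.7) at chr12:80107754-80113013 and Zfp36l2 (ENSMUSG00000045817.8) at chr17:84183931-84187947, all on the minus strand with 2 exons each. The Regnase genes have 6 exons each, Zc3h12a (ENSMUSG00000042677.7) at chr4:125118423-125127840 on the minus strand and Zc3h12d (ENSMUSG00000039981.6) at chr10:7832470-7870396 on the plus strand. The Roquin genes have 20 exons each, Rc3h1 (ENSMUSG00000040423.10) at chr1:160906418-160974978 on the plus strand and Rc3h2 (ENSMUSG00000075376.10) at chr2:37370069-37422903 on the minus strand. The encoded proteins range from 319 residues for Zfp36 to 1187 residues for Rc3h2. An antisense or long noncoding gene overlaps each of the 3 ZFP36 genes. Small RNA genes overlap Zc3h12d (Mir5104 and Gm24726) and Rc3h2 (Snord90). Rc3h1 is overlapped by Gm37052, Gm37809 and Gm37653 on its own strand. The library kit is not stated to keep strand, so reads from such a partner cannot be told apart.

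Depth differed between the libraries. Estimated from the steps between low values, the CML libraries held 7613827, 829181 and 2286190 reads and the naive libraries 5187987, 8771237 and 9751911 reads. CML replicate 2 stands apart, with reads on 12589 features against 14257 to 18094 in the other libraries. Foxp3 was high in all libraries, at 468, 299 and 427 RPKM in CML and 297, 367 and 349 RPKM in naive Tregs, and its log2 fold change was 0.22 (SE 0.20, adjusted p = 0.72 by limma). The granulocyte markers summed to 10.2, 207 and 225 RPKM in the CML libraries and to 31.2, 53.9 and 52.5 RPKM in the naive libraries. Of the 14 genes listed, 8 could be tested, all 8 with a log2 fold change above 0, and limma called 0. Elane alone was higher in CML without overlap, at 3.95, 7.56 and 29.1 RPKM against 2.66, 1.43 and 3.34 RPKM. Of all genes tested, 4.84% were higher without overlap, and limma called 0.0431% higher and 0.129% lower in CML. Mmp8 and Retnlg, 2 of the 14, had no reads in any library. The 7 measured erythroid markers summed to 97.1, 32.8 and 168 RPKM in CML and to 20.7, 24.8 and 5.01 RPKM in naive libraries, without overlap. Monocyte markers summed to 68.1 to 128 RPKM in CML and 75.6 to 97.1 RPKM in naive libraries. Most of this came from Ccr2 (36.5 to 89.7 and 27.1 to 49.4 RPKM) and Ms4a6c (17.7 to 29.4 and 37.3 to 39.9 RPKM). Ms4a6c was lower in CML without overlap, beside 12.2% of all genes tested. Csf1r, Cd14, Adgre1 and Fcgr1 did not exceed 1.83 RPKM. B cell markers summed to 3.18 to 8.80 and 8.42 to 10.7 RPKM. Pax5, Ebf1 and Vpreb3 had no reads in any library. Cd79b was at 8.80, 0 and 3.18 RPKM in CML and at 8.42, 7.965 and 8.06 RPKM in naive libraries. Cd79a reached 7.28 RPKM in CML replicate 2. CD8 T cell and NK cell markers summed to 66.2 to 79.9 and 37.8 to 76.1 RPKM. The part of other cells in the values of the decay factors was not tested.

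The first question was how strongly each factor is expressed in BM Tregs, in RPKM (reads scaled to the length of the feature and to the size of the library), a unit that allows genes to be compared per length. The ZFP36 genes formed the upper tier. Zfp36l1 had the highest mean over the 6 libraries, 309 RPKM, which is rank 173 among the 13923 genes tested. Zfp36 and Zfp36l2 both had a mean of 208 RPKM. Zfp36l1 exceeded Zfp36 in 6 of 6 libraries, although the ranges of the 2 genes over the libraries overlap. Zfp36 exceeded Zfp36l2 in 2 of 6 libraries, both of them CML, so the order of these neighbours is not fixed by the data.

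The Roquin and Regnase genes formed the lower tier. The lowest Zfp36l2 value, 114 RPKM, lay above the highest Rc3h1 value, 44.0 RPKM, so the 2 tiers did not overlap. Within the lower tier, Rc3h1 (mean 38.5 RPKM) exceeded Rc3h2 (36.4 RPKM) in 5 of 6 libraries and Rc3h2 exceeded Zc3h12a (27.8 RPKM) in 4 of 6. Zc3h12a exceeded Zc3h12d (20.98 RPKM) in 3 of 3 naive but 1 of 3 CML libraries. None of these neighbours differed beyond their spread over the libraries. Even the lowest gene, Zc3h12d, stood at rank 5173 of 13923.

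**Figure D2:**
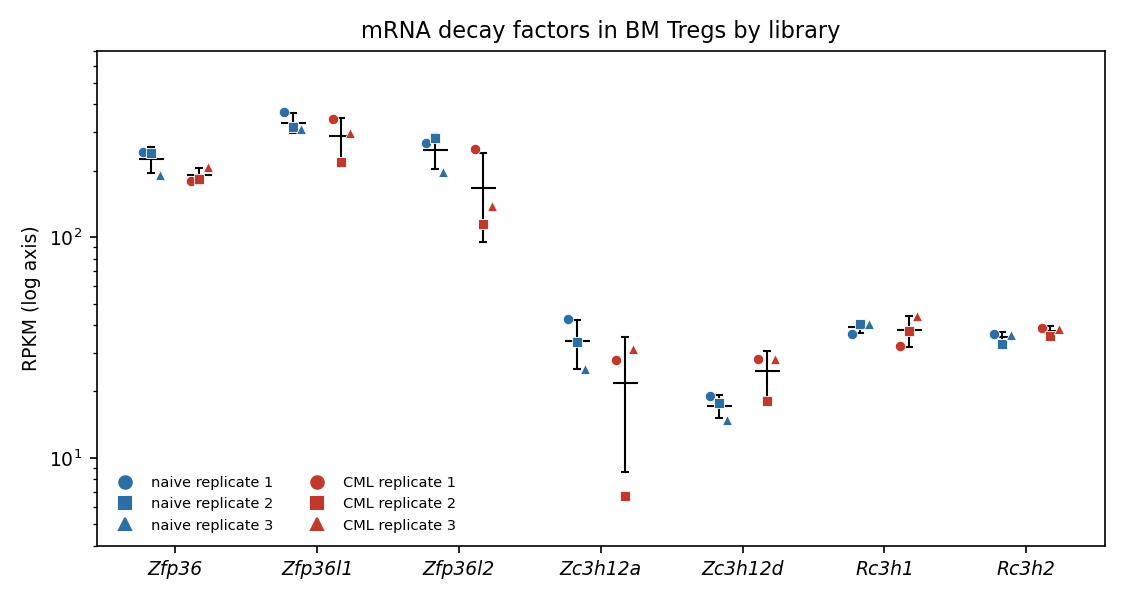
RPKM (log axis) of the 7 mRNA decay factors in each naive (blue) and CML (red) library, with the mean and SD of 3 mice as black bars. The ZFP36 genes lie at 114 RPKM or above and the others at 44.0 RPKM or below, CML replicate 2 is the lowest point of Zc3h12a at 6.73 RPKM, and naive and CML points overlap in each gene.

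The second comparison asked whether the factors change in Tregs of CML mice. Differences were tested by limma on log2(RPKM + 1) over the 13923 genes whose mean reached 1 RPKM, among them all 7 factors, and a gene was called at a Benjamini-Hochberg adjusted p under 0.05 with a fold of at least 1.5. None of the 7 was called in either direction, while 0.0431% of all genes tested were called higher and 0.129% lower in CML. When the unadjusted p was used with the same fold (referred to as the unadjusted threshold), the count was also 0 of 7, against 2.61% of genes tested higher and 5.94% lower. Libraries of the 2 groups overlapped for each of the 7 genes, whereas 4.84% of genes tested lay higher and 12.2% lower in CML without overlap. The fitted difference was below 0 in 5 of the 7 and above 0 in 2, with a median log2 fold change of -0.23 beside -0.18 over all genes, of which 64.3% were lower in CML. In bulk samples, fewer cells of a type and less RNA per cell cannot be told apart.

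Zfp36, which encodes tristetraprolin, was at 179, 183 and 209 RPKM in CML Tregs and at 245, 242 and 192 RPKM in naive Tregs. CML replicates 1 and 2 lay below each naive library, and CML replicate 3 lay above naive replicate 3. The means were 191 ± 16.2 and 226 ± 29.7 RPKM (SD, n = 3), with a log2 fold change of -0.24 (SE 0.16, 95% interval -0.61 to 0.13, limma adjusted p = 0.649).

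Zfp36l1, a paralog that acts with Zfp36l2 in lymphocyte development, was measured at 343, 219 and 296 RPKM in CML and at 369, 315 and 309 RPKM in naive Tregs. The lowest value came from CML replicate 2, and CML replicate 1 exceeded 2 of the 3 naive libraries. This gave 286 ± 62.4 against 331 ± 33.1 RPKM (SD, n = 3) and a log2 fold change of -0.23 (SE 0.19, 95% interval -0.67 to 0.22, limma adjusted p = 0.707). Without CML replicate 2, this log2 fold change was -0.049.

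Zfp36l2 had the widest gap of the family. Its values were 251, 114 and 138 RPKM in CML and 268, 281 and 197 RPKM in naive Tregs. CML replicates 2 and 3 lay below all naive libraries, but CML replicate 1 lay between the naive values. With means of 168 ± 73.1 and 249 ± 45.2 RPKM (SD, n = 3), the log2 fold change was -0.63 (SE 0.30, 95% interval -1.32 to 0.058, limma adjusted p = 0.552). The fitted fold was 0.65, and 0.76 without CML replicate 2. The unadjusted threshold was reached without CML replicate 1 (limma adjusted p = 0.176) and without naive replicate 3 (limma adjusted p = 0.785). In these settings, 1308 and 574 of all genes were lower at this threshold, against 827 with all libraries.

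Zc3h12a (Regnase-1) varied most. It was at 27.6, 6.73 and 31.3 RPKM in CML and at 42.4, 33.6 and 25.3 RPKM in naive Tregs. The low value of CML replicate 2 rests on about 15 estimated reads, for which an exact Poisson interval (95%, counting error only) gives 3.77 to 11.1 RPKM, whereas the other 2 CML libraries lay inside the naive range. The group means were 21.9 ± 13.2 and 33.8 ± 8.55 RPKM (SD, n = 3), and the log2 fold change was -0.82 (SE 0.54, 95% interval -2.06 to 0.42, limma adjusted p = 0.646). Without CML replicate 2, the log2 fold change was -0.16.

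Zc3h12d (Regnase-4) was the only gene of the 7 with a fitted increase of more than 0.1 on the log2 scale. Its values were 28.0, 18.1 and 28.1 RPKM in CML and 19.0, 17.7 and 14.9 RPKM in naive Tregs. CML replicates 1 and 3 exceeded all naive libraries, and CML replicate 2, with about 61 estimated reads, lay between the naive values. From means of 24.7 ± 5.78 and 17.2 ± 2.09 RPKM (SD, n = 3), the log2 fold change was 0.48 (SE 0.27, 95% interval -0.15 to 1.11, limma adjusted p = 0.607). Without CML replicate 2, the fitted fold was 1.60 instead of 1.39, with a limma adjusted p of 0.295. The groups then no longer overlapped, and 14.0% of all genes were higher without overlap in this setting. The gene also passed the unadjusted threshold, at which 679 genes were higher in this setting, against 363 with all libraries. The study had listed Zc3h12d among its differentially expressed genes on these same mice, so these values are not independent evidence.

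The Roquin genes had the fitted differences nearest to 0. Rc3h1 (Roquin-1) was at 32.01, 37.7 and 44.0 RPKM in CML and at 36.5, 40.6 and 40.3 RPKM in naive Tregs, and the CML values surround the naive values. Its log2 fold change was -0.055 (SE 0.20, 95% interval -0.52 to 0.41, limma adjusted p = 0.943). Rc3h2 (Roquin-2) was at 38.8, 35.5 and 38.5 RPKM in CML and at 36.4, 32.9 and 36.2 RPKM in naive Tregs. Here the log2 fold change was 0.095 (SE 0.18, 95% interval -0.33 to 0.52, limma adjusted p = 0.881). On the values as deposited and measured from a difference of 0, the intervals of both Roquin genes exclude a 1.5-fold change in either direction. Those of the other 5 genes do not. The intervals were not measured from the median of all genes, -0.18. With the 75th percentile made equal in all libraries, the log2 fold changes were 0.014 for Rc3h1 and 0.16 for Rc3h2. The coefficient of variation of Rc3h2 was 4.88% over the CML and 5.65% over the naive mice, compared with 60.5% and 25.3% for Zc3h12a.

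**Figure D3:**
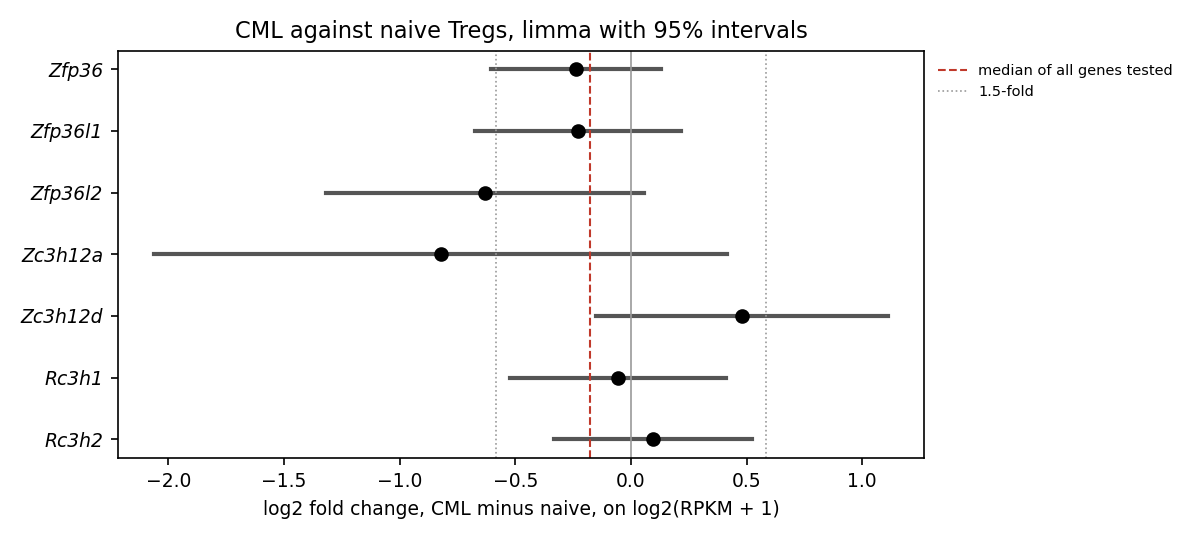
Fitted log2 fold change of each decay factor, CML minus naive (points, limma on log2(RPKM + 1)), with 95% intervals (bars), the 1.5-fold marks (dotted) and the median of all genes tested (dashed, -0.18). Each interval crosses 0, and those of Rc3h1 and Rc3h2 alone lie inside the 1.5-fold marks.

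Ratios of family members within a library do not depend on how that library was scaled. Of 5 such ratios, Zc3h12a to Zc3h12d was the only one whose groups did not overlap. It was 0.986, 0.373 and 1.11 in CML and 2.23, 1.90 and 1.70 in naive Tregs. Regnase-1 mRNA thus exceeded Regnase-4 mRNA per length in 3 of 3 naive libraries, by 1.70 times or more, and in 1 of 3 CML libraries. The ratio was 2.60 times lower in CML, a difference of -1.38 on the log2 scale, with p = 0.1 by an exact 2-sided permutation test and 0.5 after Benjamini-Hochberg adjustment over the 5 ratios. An exact p of 0.1 is the smallest that 3 mice against 3 can give, over 20 assignments of the libraries. The log2 difference ranged from -1.67 to -0.88 when each library was left out in turn, with -0.88 without CML replicate 2.

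The ZFP36 ratios overlapped between the groups. Zfp36 to Zfp36l2 was 0.713, 1.60 and 1.51 in CML and 0.913, 0.861 and 0.974 in naive Tregs, so the 2 CML mice with low Zfp36l2 stood above 1 (log2 difference 0.39, exact permutation p = 0.4). For Zfp36l1 to Zfp36l2 the log2 difference was 0.40 (exact permutation p = 0.3), and for Zfp36 to Zfp36l1 it was -0.012 (exact permutation p = 1). Rc3h1 to Rc3h2 stayed between 0.825 and 1.23 in all libraries (log2 difference -0.15, exact permutation p = 0.5). Summed over the family, ZFP36 mRNA was at 773, 517 and 644 RPKM in CML and 881, 837 and 698 RPKM in naive Tregs, of which naive replicate 3 lay below CML replicate 1.

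**Figure D4:**
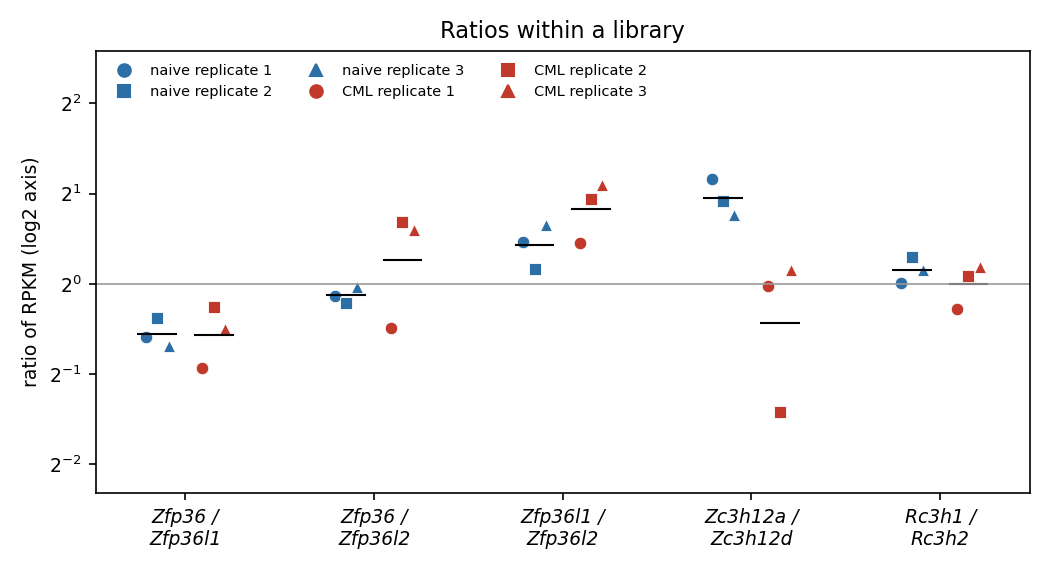
Ratio of 2 family members within each naive (blue) and CML (red) library on a log2 axis, with the geometric mean of each group as a black line. The Zc3h12a to Zc3h12d ratio lies at 1.70 to 2.23 in naive and at 0.373 to 1.11 in CML Tregs, and the other 4 ratios overlap.

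The other genes of the same families were examined next. N4bp1, a relative of the Regnases that is cleaved by MALT1, was at 56.3, 40.5 and 53.7 RPKM in CML and 26.0, 21.6 and 24.2 RPKM in naive Tregs. The groups did not overlap, and the log2 fold change was 1.02 (SE 0.22), yet with a limma adjusted p of 0.192 the gene was not called. Zc3h12c was at 47.9, 23.2 and 37.6 RPKM in CML and at 37.8, 13.4 and 28.0 RPKM in naive Tregs, with overlap. Zc3h12b did not exceed 4.23 RPKM and Zfp36l3 had no reads in any library. In a list of 4 family genes, of which 3 could be tested, 0 were called. Without overlap 1 was higher, beside 4.84% of all genes tested.

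Of 12 regulators that act on these proteins, limma called 0. At the unadjusted threshold 2 were higher and 0 lower, beside 2.61% and 5.94% of all genes tested. Malt1, the protease that cleaves Regnase-1 and the Roquins, was at 171, 127 and 130 RPKM in CML and at 70.5, 78.8 and 95.1 RPKM in naive Tregs. Each CML library exceeded each naive library (log2 fold change 0.80, SE 0.19, limma adjusted p = 0.240). Bcl10, a partner of MALT1, was at 24.1 to 43.4 RPKM in CML and 33.3 to 38.7 RPKM in naive Tregs. The list as a whole had 6 genes above and 6 below 0, with a median log2 fold change of -0.0015 beside the -0.18 of all genes. Without CML replicate 2, these medians were 0.12 and -0.033. Malt1 and N4bp1 were also among the genes that the study listed on these mice.

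The decay machinery that these factors call upon comprised 41 genes, all tested, of which limma called 0. At the unadjusted threshold 0 were higher and 2 lower, beside 2.61% and 5.94% of all genes tested. Without overlap 1 was higher and 4 lower, beside 4.84% and 12.2% of all genes. The median log2 fold change was -0.14, or -0.064 without CML replicate 2, with 11 genes above and 30 below 0. For all genes tested, these medians were -0.18 and -0.033, and 64.3% were lower in CML. Parn, a poly(A)-specific ribonuclease, was at 24.8, 16.9 and 12.3 RPKM in CML and at 36.3, 44.5 and 39.5 RPKM in the naive mice (log2 fold change -1.16, SE 0.29, limma adjusted p = 0.254). Tob1, an antiproliferative adaptor of the CCR4-NOT complex, was at 21.1, 11.1 and 10.04 RPKM against 28.8, 30.4 and 28.7 RPKM (log2 fold change -1.08, SE 0.32, limma adjusted p = 0.323). All 3 CML libraries lay below all naive libraries for both genes. Exosc6, an exosome subunit, was higher without overlap at 4.26 to 6.39 against 1.64 to 4.02 RPKM (limma adjusted p = 0.640). Exosc9 and the helicase gene Upf1 were the other 2 that lay lower without overlap, named after their values were seen, with log2 fold changes of -0.46 and -0.32. The 11 CCR4-NOT subunits had none without overlap and a median of -0.083.

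Of 8 other binders of AU-rich or related elements, limma called 0, and 0 passed the unadjusted threshold. None lay apart between the groups, beside 4.84% of all genes tested that were higher and 12.2% that were lower without overlap. The list had a median log2 fold change of -0.24, beside -0.18 over all genes. Without CML replicate 2, these medians were -0.019 and -0.033.

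Known target mRNAs of the Regnases and Roquins were described on their own. Of 13, 10 held the stem loop and 7 the octamer, and 10 passed the filter on low values. Limma called 0 of the 10. At the unadjusted threshold 2 were higher and 0 lower, beside 2.61% and 5.94% of all genes tested. Tnfrsf4, a costimulatory receptor of the TNF receptor family (OX40), was at 465, 284 and 452 RPKM in CML and at 205, 176 and 182 RPKM in naive Tregs. It did not overlap between the groups (log2 fold change 1.06, SE 0.21, limma adjusted p = 0.161), and it was called without CML replicate 2, at an adjusted p of 0.0295. Icos, another costimulatory receptor, was at 172, 116 and 186 RPKM against 103, 88.0 and 108 RPKM (log2 fold change 0.64, SE 0.21, limma adjusted p = 0.389). Ctla4, an inhibitory receptor, was at 222, 205 and 213 RPKM against 178, 154 and 142 RPKM (log2 fold change 0.44, SE 0.15, limma adjusted p = 0.405). These 3 receptor mRNAs, whose CML libraries all lay above the naive ones, are the mRNAs of the list whose groups did not overlap. Of all genes tested, 4.84% were higher without overlap. The list median was 0.11, and 0.38 without CML replicate 2, beside -0.18 and -0.033 over all genes. Tnfrsf4 and Icos stand in the study's own list, so their direction is not independent evidence.

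The same description was made for 18 target mRNAs of ZFP36 proteins. Of the 17 with a 3′ UTR in the annotation, 14 held the octamer and 4 the stem loop. Limma called 0 of the 11 that passed the filter. At the unadjusted threshold 1 was higher and 0 lower, beside 2.61% and 5.94% of all genes tested. Ccl3, a chemokine, was at 27.3, 25.9 and 25.1 RPKM in CML and at 5.53, 0 and 0 RPKM in naive Tregs, a difference without overlap (limma adjusted p = 0.141). The list had a median log2 fold change of 0.22, beside -0.18 over all genes, with 8 genes above and 3 below 0. Tnf was at 20.8, 8.83 and 26.3 RPKM in CML and 22.1, 20.3 and 26.5 RPKM in naive Tregs, with overlap.

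**Figure D5:**
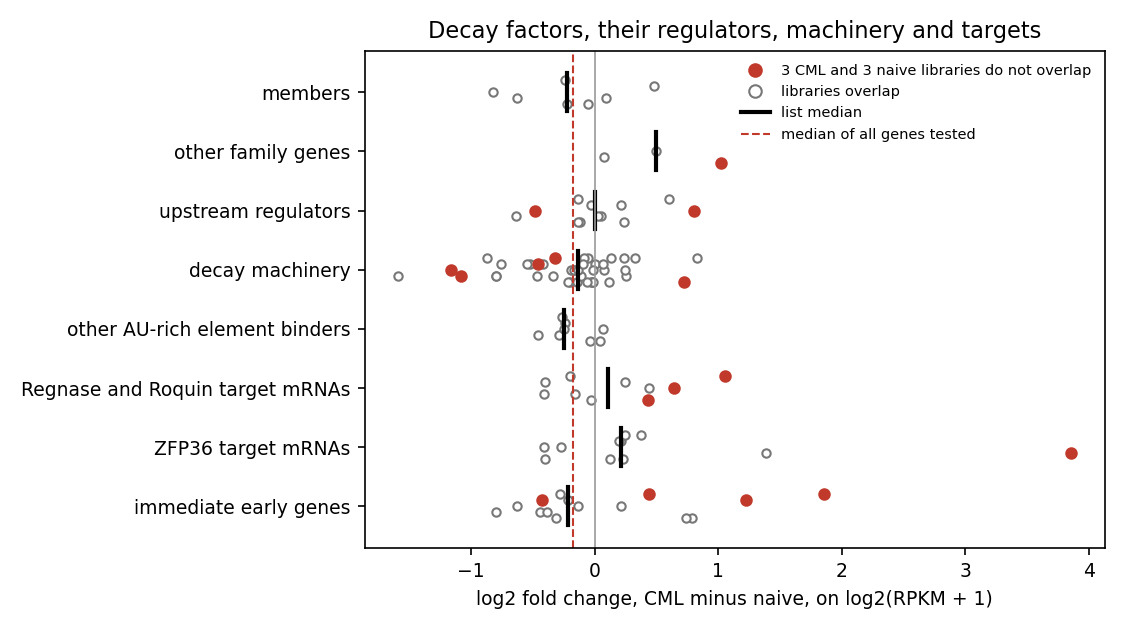
Log2 fold change of single genes, CML minus naive, in the 7 decay factors (members) and in lists of related genes (rows), with the list median as a black bar and the median of all genes as a dashed line. Filled points mark genes whose 3 CML and 3 naive libraries do not overlap, which holds for 0 of the 7 decay factors and, over all genes tested, for 4.84% higher and 12.2% lower in CML.

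Genes were also split by motif across the transcriptome. Among the 10755 protein-coding genes tested that have a 3′ UTR in the annotation, the 1674 with the octamer had a median log2 fold change of -0.18 and the 9081 without it -0.14. For the stem loop, the medians were -0.17 in 2388 genes with it and -0.14 in 8367 without it. The 3′ UTRs differ in length between these sets, with medians of 2050 and 863 bases for the octamer and 2129 and 786 bases for the stem loop. These are descriptions across genes, which are not independent replicates.

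The genes whose profile over the 6 libraries was most like that of a decay factor were found by Pearson r of log2(RPKM + 1) among the 7852 genes whose mean reached 10 RPKM. For Zfp36 they were Glud1 (r = 0.994), Rpl19 (0.991) and Junb (0.985). Zfp36l1 was most like I830077J02Rik (0.999), Ncoa6 (0.998) and Sf3b3 (0.997), and Zfp36l2 most like Rassf3 (0.997), Rpl15 (0.995) and Capn7 (0.991). For Zc3h12a, the low value of CML replicate 2 was shared by Hist2h2aa2, Suv420h1 and Map3k3 (r of 0.997 to 0.998). Zc3h12d was most like Psmb7 (0.985), 1110059E24Rik (0.983) and Ccna2 (0.978), Rc3h1 most like Fbxo28 (0.981), Txlng (0.971) and Pitpna (0.969), and Rc3h2 most like Tex2 (0.991), Spryd7 (0.991) and Tfrc (0.986), the last a listed target mRNA. With 6 libraries that differ in depth and 7852 genes, some profiles run close to any given gene, so these are descriptions only.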

How the data were processed

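Tregs of 3 CML and 3 naive mice were profiled by SMART-Seq v4 and single-end sequencing. Reads were assembled by the authors with SeqMan NGen, and ArrayStar was used for analysis. The deposited tables hold 1 value for each feature, read here as RPKM. No source names this unit. In features of known length, 31.69% to 58.46% of products of value and length lay on whole multiples of a step (within 0.05), against 10% by chance. This share leaves out the products that set the step. The step also gave the reads per library. Such reads are estimates, were used only for depth and counting intervals, and are not independent molecules. A value of 0.001 marks no reads and was set to 0. The submitters' processing notes name GRCm38 and mm10. The paper's methods name DEseq2. As the values are not counts, limma 3.58.1 in R 4.3.3 was run on log2(RPKM + 1), with a trended prior variance and Benjamini-Hochberg adjustment over the 13923 genes whose mean reached 1 RPKM. A fold change on this scale understates that of low genes.

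Ratios were compared by exact 2-sided permutation tests. Other steps ran in Python 3.11.15 (scipy 1.17.1, pandas 2.3.3, numpy 2.4.6). The longest principal transcript of each gene in GENCODE M21 gave the 3′ UTR. The stem loop search was chosen after the files were seen. Cnot9 and Adgre1 are listed as Rqcd1 and Emr1. Lists and named genes follow a written rule: all 7 factors, in each list the called genes or else the 3 largest changes without overlap, and the 3 genes most like each factor. The 7 factors and the lists were chosen with earlier results of these data known. Family genes, Bcl10, Tnf and genes said to be so were named outside it after their values were seen. The fit was tested on simulated data, where 81% of 200 genes changed by 3 on the log2 scale were called, with 9 false calls. Changes near the 1.5-fold threshold were not simulated. A gene that falls under the naming rule is left out of the text. List values without CML replicate 2 were added after the data were seen. Alternatives covered the pseudocount, the filter, the scaling, the prior variance, library weights, a replicate block and each library left out.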

Additional observations from a re-analysis of the deposited data

How the results depend on the processing

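The call of each of the 7 factors, not past the threshold, was kept under all 15 alternatives, and the lowest adjusted p by limma among them was 0.176, for Zfp36l2. The direction was kept for 6 of the 7. That of Rc3h1 turned, to 0.014 when the 75th percentile was made equal in all libraries and to 0.057 without CML replicate 1 (leave-one-out range -0.17 to 0.057). The ratio of Zfp36 to Zfp36l1 turned to 0.17 without CML replicate 1 and to 0.075 without naive replicate 2 (range -0.17 to 0.17). The scaling moved the median of all genes from -0.18 to -0.12 (75th percentile) and -0.0068 (quantile), so changes are best read against that shift.

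All genes past the adjusted p and fold numbered 24, but 1 without the filter on low values, 53 with either scaling, 11 without a trend in the prior variance, 45 with library weights and 0 to 29 with each library left out, with 0 without naive replicate 1 and without naive replicate 2, 3 without naive replicate 3 and 8 without CML replicate 3. At the unadjusted p and fold, 363 were higher and 827 lower, against 624 and 590 after quantile scaling and, with each library left out, 250 to 679 higher and 482 to 1308 lower. Genes without overlap numbered 2375, and 3209 to 4490 with each library left out. Of the 7 factors, 1 passed the unadjusted p with quantile scaling and with library weights (Zc3h12d) and 0 to 1 with a library left out. Without overlap there was 1 with either scaling (Zc3h12d), and 0 to 3 with a library left out: Zfp36l1 and Zfp36l2 without CML replicate 1, Zc3h12d and Rc3h2 without CML replicate 2, Zfp36 without CML replicate 3, Zc3h12d without naive replicate 1, and Zfp36, Zfp36l2 and Zc3h12a without naive replicate 3. Where a count changed, the cause was not tested, apart from overlap, which fewer libraries make rarer by construction.

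The replicate numbers belong to different mice and do not pair the samples. Deviations from the group means correlated at -0.0048, -0.0016 and -0.019 between libraries of the same number, which by itself cannot show that samples are unpaired. With the replicate number as a block, 1 gene passed the adjusted p and fold, and 0 of the 7 factors. List medians without CML replicate 2 were 0.78 for the other family genes, 0.12 for the regulators, -0.064 for the decay machinery, -0.019 for the other AU-rich element binders, 0.38 for the Regnase and Roquin targets, 0.25 for the ZFP36 targets and -0.085 for the immediate early genes, beside -0.033 over all genes. The log2 fold change of Zfp36l1 was -0.048 with library weights. Depth limits Zc3h12a most, with about 15 estimated reads in CML replicate 2.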

Other observations

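Immediate early genes, which are induced within minutes of stimulation or of handling a cell and many of which have short-lived mRNAs, were listed beside the decay factors. Of 15, limma called 0. At the unadjusted threshold 2 were higher and 0 lower, beside 2.61% and 5.94% of all genes tested. Egr2 was at 8.56, 11.5 and 13.5 RPKM in CML and at 2.14, 1.68 and 3.33 RPKM in the naive mice (log2 fold change 1.86, SE 0.41, limma adjusted p = 0.218). Egr1 was at 35.6, 42.2 and 36.0 RPKM against 11.1, 14.7 and 23.3 RPKM (log2 fold change 1.22, SE 0.30, limma adjusted p = 0.248). Nr4a1, an orphan nuclear receptor induced by T cell receptor signals, was at 39.4, 35.0 and 39.5 RPKM against 32.7, 27.9 and 23.1 RPKM (log2 fold change 0.44, limma adjusted p = 0.561). For these 3 genes, each CML library lay above each naive library, which held for 4.84% of all genes tested. Klf6, named after its values were seen, was lower without overlap, at 175 to 250 RPKM against 251 to 305 RPKM (log2 fold change -0.43, limma adjusted p = 0.500). The AP-1 genes Fos, Fosb, Jun, Junb and Jund, also named after their values were seen, overlapped between the groups, with log2 fold changes from -0.63 to -0.13, and the median of the list was -0.22 beside -0.18 over all genes, or -0.085 beside -0.033 without CML replicate 2. The study had listed Egr2 and Nr4a1 on these mice.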
